A study of Mus musculus with 16 samples.

Results

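The Th1 genes Il18r1, Stat4, Runx3, Ifng and Cxcr3 were followed through Th17 polarization of mouse CD4 T cells with and without the corepressor Sin3A. The 5 were chosen by name as Th1 factors, receptors and the Th1 cytokine, and they are 5 of the 17850 rows of the deposited table, of which 8552 carry a name. All 5 were matched to a row of values and tested. The study has 16 RNA-seq libraries of purified CD4 T cells in 4 groups of 4. Th17 deficient cells had 6 days in IL-7 with tamoxifen and then 3 days under Th17 polarizing conditions, also with tamoxifen. Th17 sufficient cells had the same days without tamoxifen. IL-7 deficient cells had only the 6 days in IL-7 with tamoxifen, and IL-7 sufficient cells only the 6 days in IL-7 without it. Every group came from mice of about 2 months labelled C57BL/6 J Rosa26-CreERT2 +/- Sin3AF/F, so the sufficient cells carry the Cre and the floxed alleles too. Cre-ERT2 is a recombinase that tamoxifen activates, driven here from the ubiquitously active Rosa26 locus. Loss of Sin3A and exposure to tamoxifen go together in every deficient group and cannot be told apart. Polarization likewise goes with 3 more days of culture. The labels end in the same 4 numbers in every group, as in D3TAM955, D3TAM957, D3TAM959 and D3TAM960 for Th17 deficient cells, and the other groups have the stems D3 (Th17 sufficient), BASALTAM (IL-7 deficient) and BASAL (IL-7 sufficient). They do not tie a number to a mouse, and give the libraries that end like D3TAM959 as female and the rest as male. Where nothing names separate animals or cultures, p-values measure only the spread between these libraries.

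Th1 cells are the interferon gamma producing branch of CD4 T cells. Interleukin 12 starts the program by activating the transcription factor STAT4, which with T-bet and RUNX3 acts at the interferon gamma gene and lets the cell display the interleukin 18 receptor. Interleukin 18 then signals through MyD88 and IRAK kinases to NF-kappa B and adds to interferon gamma output. CXCR3 is the chemokine receptor that brings Th1 cells to inflamed tissue. Th17 cells follow another program, led by ROR gamma t and interleukin 17, but can turn to interferon gamma production, and STAT4 and RUNX3 are among the factors known to take part in that turn. Sin3A is the scaffold of a histone deacetylase complex.

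The library columns of the deposited table had lost their decimal points, and the names and the values stood in different row orders. Values and names were restored from the digits and from the authors' fold changes, so every value given rests on that restoration. Restored depths lay between 19770447 and 28625705 reads per library, and the self-made scalings tried moved no library by more than 0.06 on the log2 scale against the deposited one. Sin3a itself averaged 1774 ± 49.8 normalized counts in Th17 deficient and 2106 ± 181 in Th17 sufficient cells, and 2211 ± 98.2 in IL-7 deficient and 2524 ± 249 in IL-7 sufficient cells (SD, n = 4 each). Its log2 change was -0.24 in Th17 cells (limma, adjusted p = 0.011) and -0.19 in IL-7 cells (adjusted p = 0.19), so most of its reads were still counted. Which exons are floxed is not given in the sources used here, and reads outside them do not check the deletion. The interleukin 17 genes Il17a and Il17f were higher in Th17 than in IL-7 cells, by log2 changes of 6.62 and 8.63 in deficient cells and 9.46 and 10.21 in sufficient cells. The 6 joined T cell markers of 8 summed to 31659 to 35417 normalized counts in Th17 deficient and 50689 to 54878 in Th17 sufficient libraries. Only genes with a negative fold change in the authors' deposited table for deficient over sufficient Th17 cells carry a name, so that direction was set by the list of names. In IL-7 cells the same markers summed to 61326 to 65691 in deficient and 64709 to 73433 in sufficient libraries.

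STAT4 and RUNX3 belong to factor families with well known DNA motifs, so the promoters of the members were searched for RUNX (TGTGGT and TGCGGT), STAT (TTCNNNGAA), T-box (GGTGTG) and AP-1 (TGANTCA) letters on both strands. The windows are RefSeq promoters of build GRCm38.p6, from 250 bases before to 50 bases after a start, with 1 to 3 starts per gene; all 5 genes matched. The 5 windows that held any of these letters are shown 5′ to 3′ on the gene's strand, with each match in capitals. Runx3 (chr4:135120395-135120694, plus strand) holds TGTGGT 2 times in reverse, starting 134 and 126 bases before the start. Cxcr3 (chrX:101734098-101734397, minus strand) holds it 2 times in reverse as well, 110 bases before the start and at base 12 after it. Il18r1 (chr1:40465371-40465670, plus strand) holds GGTGTG 12 bases before start 2 and TGTGGT at base 22 after it. At start 3 (chr1:40465756-40466055, plus strand) it holds TTCNNNGAA 2 times, 219 and 152 bases before the start. Ifng (chr10:118440796-118441095, plus strand) holds TTCNNNGAA 249 bases before the start.
Runx3, start 1: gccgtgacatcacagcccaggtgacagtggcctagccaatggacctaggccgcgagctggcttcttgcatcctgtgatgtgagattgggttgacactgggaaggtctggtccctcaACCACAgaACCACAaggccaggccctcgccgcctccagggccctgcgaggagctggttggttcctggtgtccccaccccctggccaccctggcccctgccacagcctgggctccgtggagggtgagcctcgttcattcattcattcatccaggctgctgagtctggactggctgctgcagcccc
Cxcr3: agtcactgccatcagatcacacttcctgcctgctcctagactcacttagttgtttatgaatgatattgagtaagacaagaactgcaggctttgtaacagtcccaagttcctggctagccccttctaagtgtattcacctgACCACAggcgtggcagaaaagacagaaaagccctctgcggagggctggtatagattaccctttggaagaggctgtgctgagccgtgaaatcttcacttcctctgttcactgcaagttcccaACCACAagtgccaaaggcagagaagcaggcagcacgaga
Il18r1, start 2: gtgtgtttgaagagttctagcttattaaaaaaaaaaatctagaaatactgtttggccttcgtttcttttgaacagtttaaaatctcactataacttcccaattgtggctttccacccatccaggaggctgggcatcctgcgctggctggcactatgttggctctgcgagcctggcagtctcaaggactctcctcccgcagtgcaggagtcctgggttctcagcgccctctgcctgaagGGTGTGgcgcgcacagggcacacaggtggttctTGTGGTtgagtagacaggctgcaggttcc
Il18r1, start 3: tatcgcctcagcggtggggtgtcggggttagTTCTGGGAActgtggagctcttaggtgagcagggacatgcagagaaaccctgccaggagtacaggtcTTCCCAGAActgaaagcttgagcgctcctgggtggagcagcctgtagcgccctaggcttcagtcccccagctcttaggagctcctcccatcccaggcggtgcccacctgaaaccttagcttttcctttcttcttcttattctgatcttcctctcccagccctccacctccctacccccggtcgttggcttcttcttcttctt
Ifng: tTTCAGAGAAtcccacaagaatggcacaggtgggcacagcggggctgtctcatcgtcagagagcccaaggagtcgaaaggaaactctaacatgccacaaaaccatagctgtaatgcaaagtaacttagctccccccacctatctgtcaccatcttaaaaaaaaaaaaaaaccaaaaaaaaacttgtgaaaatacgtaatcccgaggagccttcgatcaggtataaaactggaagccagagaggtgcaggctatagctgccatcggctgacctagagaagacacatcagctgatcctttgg
Both Stat4 windows, the other Runx3 window and the Il18r1 window at start 1 held none of these letters. Among all 32851 RefSeq windows of this length, 16.8% held TGTGGT, 6.45% TGCGGT, 8.30% TTCNNNGAA, 19.0% GGTGTG and 7.81% TGANTCA. No 2 matches overlapped in the windows shown, and a match is only a run of letters, not a bound site.

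The values that follow are the deposited normalized counts as restored, which are reads divided by a size factor per library, listed in the order of D3TAM955, D3TAM957, D3TAM959 and D3TAM960 and of the same endings in the other groups. Differences are log2 changes of the normalized count plus 1 from limma over all 16 libraries, and a gene was called at a Benjamini-Hochberg adjusted p under 0.05 over 13757 tested rows. The pseudocount makes a change of a low gene look smaller than it is. The log2 changes compare means of log2 values, so they can be wider or narrower than the ratio of the group means. How many of all tested rows had groups that did not overlap was not counted, so such separation is given only as a description. In bulk RNA, fewer cells of a type and less RNA per cell cannot be told apart.

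**Figure D1:**
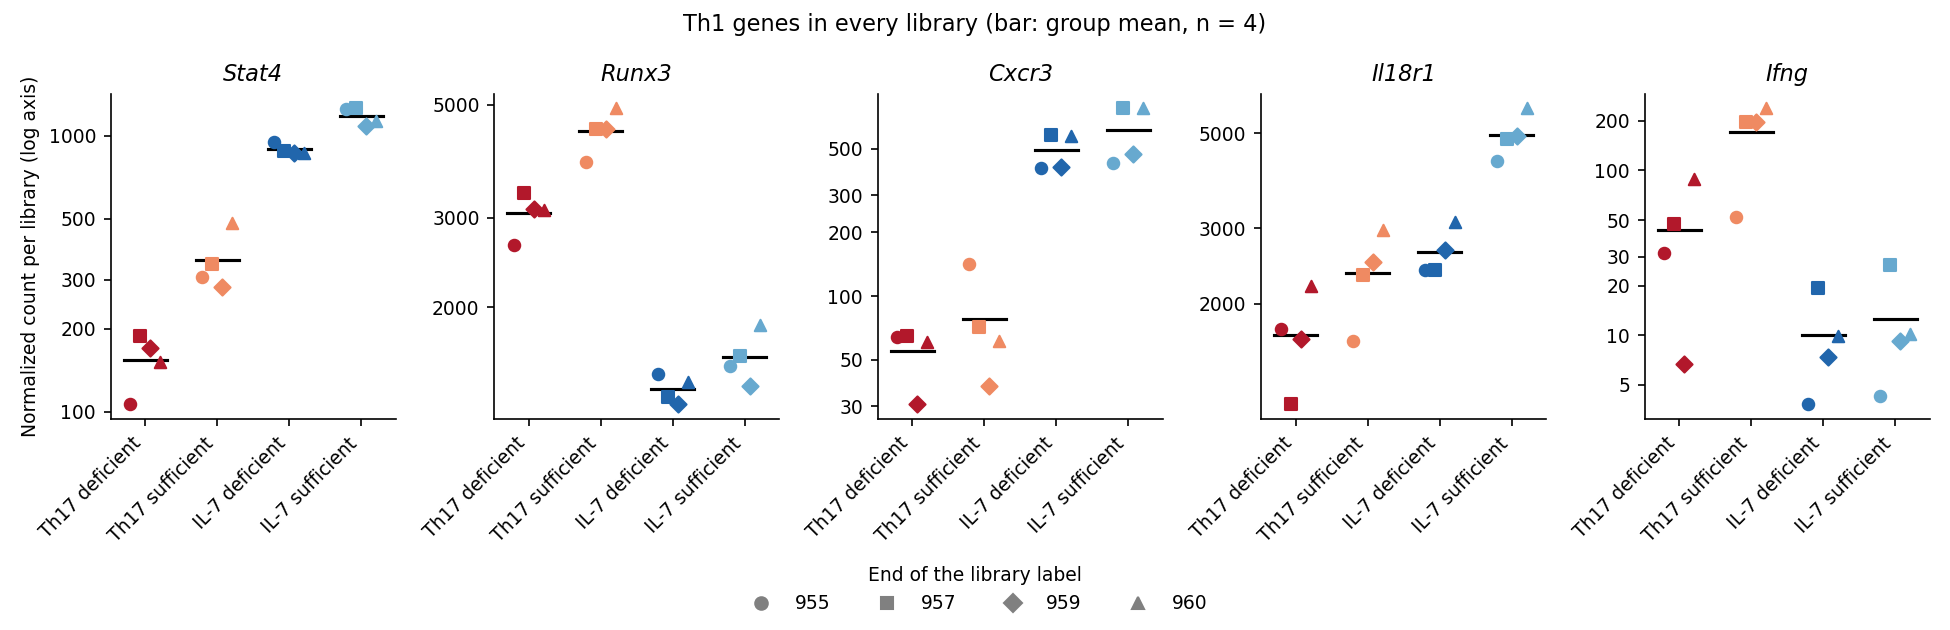
Normalized counts of the 5 Th1 genes in each of the 16 libraries on log axes, 1 panel per gene, with group means as bars and the ending of the library label as symbol. Stat4 and Cxcr3 are low in both Th17 groups, Runx3 and Ifng are high there, and the deficient libraries of Stat4, Runx3 and Ifng in Th17 cells lie mostly under the sufficient ones.

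In Sin3A deficient Th17 cells the Th1 genes Ifng, Stat4, Runx3 and Il18r1 were lower than in sufficient Th17 cells, while Cxcr3 did not pass the test. Ifng had the widest change and Stat4 the smallest p. The authors named in their table only genes with a log2 fold change below 0 in this contrast, so the direction of every named gene, members included, was set by that list. The 4 of 5 members called lower stand beside 55.1% of the 6754 named rows tested and 28.7% of all rows tested, and the median log2 change of the named rows was -0.42. With 5 genes the share of members called cannot be set apart from that of the named rows.

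Ifng encodes interferon gamma, the defining Th1 cytokine. It had 31.6, 47.5, 6.71 and 88.7 normalized counts in Th17 deficient cells, and 52.3, 197, 196 and 238 in Th17 sufficient cells. In deficient cells 3 libraries lay below every sufficient one, and D3TAM960 lay above D3955, so the groups overlapped. The means were 43.6 ± 34.4 in deficient and 171 ± 81.4 in sufficient cells (SD, n = 4 each), a ratio of 0.255. The log2 change, fitted on log2 values and not on these means, was -2.21 (95% interval -3.61 to -0.81, adjusted p = 0.0088). Without D3TAM959 and the libraries of the same ending the log2 change was -1.39 (adjusted p = 0.115). The value of 6.71 in D3TAM959 rests on the power of 10 chosen for digits that lost their decimal point. The 4 libraries of the group alone favour 67.1 (posterior 0.808) over 6.71 (0.188), and the row was not settled by its groups and was matched to its name only on the next-best powers. At 67.1 the reads would miss the authors' log2 fold change by 0.43, whereas the setting used differs from it by 4.8e-07 and the next closest of 256 settings by 0.0015. With 67.1, which also lies above D3955, the log2 change was -1.42 (adjusted p = 0.0303). The authors' deposited table gives Ifng a mean normalized count of 1478, against 59.3 over the 16 libraries here. The cause of that gap was not tested.

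Stat4 encodes the factor that carries the interleukin 12 signal to the nucleus. It had 106, 188, 171 and 152 normalized counts in Th17 deficient cells, and 308, 342, 283 and 484 in Th17 sufficient cells. Every deficient library lay below every sufficient one. Its mean of 154 ± 35.3 in deficient cells was 2.30-fold lower than the 354 ± 89.7 in sufficient cells (SD, n = 4 each), with a log2 change of -1.19 (95% interval -1.53 to -0.86, adjusted p = 6.1e-06). Stat4 was called lower under all 33 alternatives of processing and library choice, with an adjusted p of at most 0.00035. Those that changed only Ifng values or left out an IL-7 library could not move its log2 change. Its direction was set by the list of names.

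Runx3 encodes the RUNX family factor that works with T-bet at the interferon gamma gene. It had 2651, 3358, 3118 and 3112 normalized counts in Th17 deficient cells, and 3851, 4479, 4486 and 4921 in Th17 sufficient cells. The groups did not overlap here either. The log2 change was -0.53 (95% interval -0.73 to -0.34, adjusted p = 9.7e-05), with means of 3059.8 ± 296 in deficient and 4434 ± 440.4 in sufficient cells (SD, n = 4 each).

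Il18r1 encodes the binding chain of the interleukin 18 receptor. It had 1749, 1166, 1655 and 2202 normalized counts in Th17 deficient cells, and 1641, 2331, 2508 and 2968 in Th17 sufficient cells. Only D3TAM957 lay below all sufficient libraries. The log2 change of -0.48 (95% interval -0.85 to -0.12, adjusted p = 0.024) lost the threshold without D3TAM957 (adjusted p = 0.104), D3959 (adjusted p = 0.0594) or D3960 (adjusted p = 0.0952). It was lost as well without all libraries that end like D3TAM957 (adjusted p = 0.194) or like D3TAM959 (adjusted p = 0.123).

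Cxcr3 encodes the receptor for interferon-induced chemokines. It had 64.1, 65.0, 30.7 and 60.3 normalized counts in Th17 deficient cells, and 141, 71.6, 37.4 and 60.9 in Th17 sufficient cells. The groups overlapped, and D3TAM959 and D3959 were the lowest of their groups. The log2 change was -0.39 (95% interval -1.07 to 0.30, adjusted p = 0.32), so losses of up to 1.07 and gains of up to 0.30 on the log2 scale lie within what the spread allows. In Th17 sufficient cells the group alone gave the powers of 10 used a posterior of 0.773 for Cxcr3 and 0.873 for Il18r1, and the authors' fold change fixed them there too, with the next closest setting 0.0028 and 4.5e-05 away.

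The authors' deposited table gives log2 fold changes for the same contrast from its own test. They are -1.97 for Ifng (adjusted p = 0.0129), -1.20 for Stat4 (adjusted p = 3.2e-09), -0.54 for Runx3 (adjusted p = 0.000986), -0.48 for Il18r1 (adjusted p = 0.0838) and -0.50 for Cxcr3 (adjusted p = 0.274). Il18r1 is thus called in the limma fit and not in the authors' deposited table. These fold changes were also used to match names to rows, so the 2 sets of values are not independent.

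In cells kept in IL-7, Il18r1 was the one member called lower with Sin3A deficiency, and its 2 groups stood clear of each other. Stat4 lay below every sufficient library in every deficient one without passing the adjusted test. The share of all rows separated like this was not counted. Runx3, Cxcr3 and Ifng did not pass the adjusted test either. Of all tested rows 2.06% were called lower in this comparison and 4.15% in either direction, against the 1 of 5 members called. That background rests on few libraries: the 571 rows called in either direction became 257 without BASALTAM957, 298 without BASALTAM955, 331 without BASAL957 and 338 without BASALTAM959, 40 without all libraries that end like BASALTAM957 and 135 without all that end like BASALTAM959. The 284 called lower became 183 without BASAL960.

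Il18r1 had 2393, 2399.5, 2672 and 3103 normalized counts in IL-7 deficient cells, and 4295, 4833, 4935 and 5712 in IL-7 sufficient cells. The highest deficient library stayed below the lowest sufficient one. The means were 2642 ± 334 in deficient and 4944 ± 584 in sufficient cells (SD, n = 4 each), a 1.87-fold lower level with a log2 change of -0.90 (95% interval -1.27 to -0.54, adjusted p = 0.0064). The log2 change was -0.87 without all libraries that end like BASALTAM957 (adjusted p = 0.0749) and -0.91 without those that end like BASALTAM959 (adjusted p = 0.0756). Markers of other lymphocytes stood beside this result as follows. The 5 of 6 joined B cell markers summed to 137 to 266 normalized counts in IL-7 deficient and 397 to 1118 in IL-7 sufficient libraries, and Klre1, the 1 of 7 natural killer cell markers joined, had 0 to 6.42 and 32.3 to 50.6. The 2 of 3 joined gamma delta T cell markers summed to 181 to 727 in deficient and 541 to 1686 in sufficient libraries, which overlap. Of the marker genes tested, Blk, a B cell kinase (log2 change -2.50, adjusted p = 0.0071), and the gamma delta receptor gene Tcrg-C1 (-1.69, adjusted p = 0.018) were called lower. The part of such cells in the Il18r1 result was not tested.

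Stat4 had 951, 881, 864 and 868 normalized counts in IL-7 deficient cells, and 1250.3, 1255, 1079.7 and 1129 in IL-7 sufficient cells. The groups did not overlap, yet the log2 change of -0.40 (95% interval -0.74 to -0.06) had an adjusted p of 0.18. Fitted on the IL-7 libraries alone, it had an adjusted p of 0.0126. Runx3 had 1480.2, 1334, 1288 and 1424 normalized counts in IL-7 deficient cells, and 1531, 1602, 1397 and 1844 in IL-7 sufficient cells, a log2 change of -0.20 (95% interval -0.40 to -0.00378, adjusted p = 0.27).

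Cxcr3 had 406, 577, 409 and 571 normalized counts in IL-7 deficient cells, and 427, 775, 469 and 775 in IL-7 sufficient cells. Here too the groups overlapped, and the log2 change was -0.28 (95% interval -0.97 to 0.40, adjusted p = 0.72). Ifng was near the floor of the assay, with 3.80, 19.4, 7.33 and 9.88 normalized counts in IL-7 deficient cells, and 4.30, 26.5, 9.27 and 10.1 in IL-7 sufficient cells. That is 4 to 22 reads in the deficient and 4 to 34 reads in the sufficient libraries, and the log2 change of -0.23 (95% interval -1.63 to 1.17, adjusted p = 0.91) left its direction unresolved. Its sign turned to 0.11 without BASALTAM955 and to 0.20 without BASAL957. The powers of 10 of Ifng in the IL-7 groups were less sure than those of the other members, with posteriors of 0.961 in deficient and 0.907 in sufficient cells.

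Whether deficiency acted differently at the 2 stages was tested by the difference of the 2 log2 changes. Stat4 was the member called: its change in Th17 cells was lower than that in IL-7 cells by a log2 difference of -0.79 (95% interval -1.27 to -0.31, adjusted p = 0.0106). Without all libraries that end like D3TAM960 the difference was -0.63 (adjusted p = 0.0535). Ifng had a difference of -1.98 (95% interval -3.96 to 0.00297, adjusted p = 0.106) and Runx3 one of -0.33 (95% interval -0.61 to -0.06, adjusted p = 0.054). Il18r1 went the other way, at 0.42 (95% interval -0.10 to 0.94, adjusted p = 0.19), and Cxcr3 was at -0.10 (95% interval -1.07 to 0.86, adjusted p = 0.88). The 1 of 5 called, with a negative difference, stands beside 18.4% of all tested rows called with a negative difference and 38.6% called in either direction, so the members' share is near that of all rows. The difference contains the Th17 contrast whose negative fold changes decided which genes carry a name. Its median was -0.38 over the named rows and -0.012 over all tested rows, and the share of named rows called was not counted. Without all libraries that end like D3TAM957, 3245 rows were called in either direction, against 5307 with them.

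**Figure D2:**
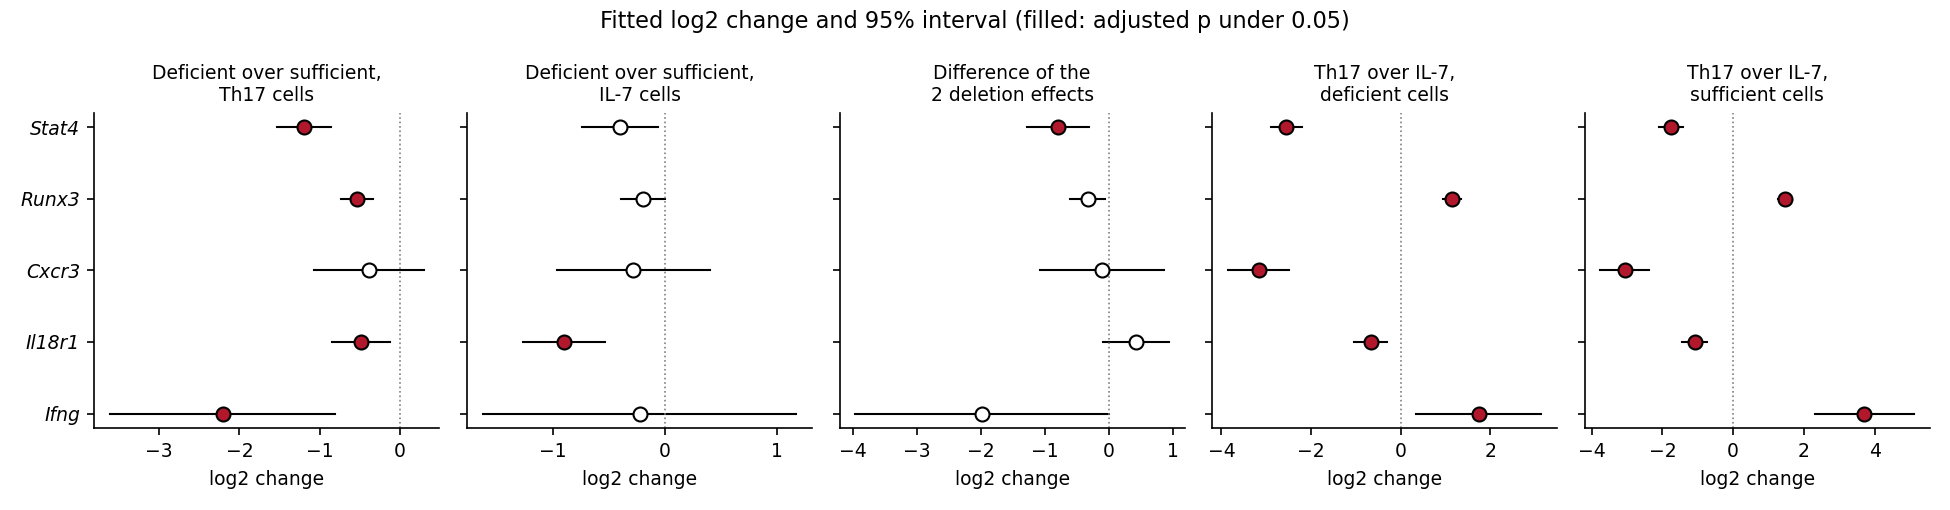
Fitted log2 changes of the 5 Th1 genes with 95% intervals in 5 comparisons, filled where the adjusted p was under 0.05. Stat4 and Cxcr3 fell with polarization in both genotypes, Runx3 and Ifng rose, and Stat4 is the filled point in the panel of the difference between deletion effects.

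Polarization split the Th1 genes. Ifng and Runx3 rose in Th17 cells relative to IL-7 cells, and Cxcr3, Stat4 and Il18r1 fell, in deficient and in sufficient cells alike. All 5 of 5 were called in both, where 78.3% of all rows were called in deficient and 76.5% in sufficient cells. Of all rows, 37.2% were called higher and 41.0% lower in deficient cells, and 36.0% higher and 40.5% lower in sufficient cells, so a change of either sign was the common case.

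Ifng averaged 43.6 ± 34.4 normalized counts in Th17 deficient and 10.1 ± 6.66 in IL-7 deficient cells (SD, n = 4 each). The ratio of these means was 4.32, and the log2 change, fitted on log2 values, was 1.74 (95% interval 0.34 to 3.14, adjusted p = 0.024). This change had the largest p of the 10 polarization results, and D3TAM959, at 6.71, lay within the IL-7 range. It lost the threshold in 7 of 33 alternatives. These were the fits without D3TAM957 (1.54, adjusted p = 0.0643), D3TAM960 (1.25, adjusted p = 0.103), BASALTAM955 (1.40, adjusted p = 0.0829) or BASALTAM959 (1.66, adjusted p = 0.0510), without all libraries that end like D3TAM955 (1.39, adjusted p = 0.0807) or D3TAM960 (1.30, adjusted p = 0.138), and with the next-best powers of 10 in both IL-7 groups (0.98, adjusted p = 0.197). In sufficient cells Ifng averaged 171 ± 81.4 in Th17 and 12.5 ± 9.64 normalized counts in IL-7 cells (SD, n = 4 each), a log2 change of 3.72 (95% interval 2.31 to 5.12, adjusted p = 6.0e-05), and no Th17 sufficient library fell within the IL-7 range. Runx3 was 2.21-fold higher in Th17 than in IL-7 cells when deficient (log2 change 1.14, 95% interval 0.95 to 1.34, adjusted p = 2.7e-09) and 2.78-fold higher when sufficient (log2 change 1.48, 95% interval 1.28 to 1.67, adjusted p = 1.2e-10). Its Th17 deficient mean of 3059.8 lay between the IL-7 and the Th17 sufficient means.

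Cxcr3 fell most among the members. Its mean was 55.0 ± 16.4 normalized counts in Th17 deficient and 491 ± 96.1 in IL-7 deficient cells, and 77.8 ± 44.6 in Th17 sufficient and 612 ± 189 in IL-7 sufficient cells (SD, n = 4 each). The log2 changes were -3.17 (95% interval -3.86 to -2.49) and -3.07 (95% interval -3.75 to -2.38) in deficient and sufficient cells, with adjusted p of 5.6e-08 and 1.0e-07. Stat4 fell 5.78-fold in deficient cells (log2 change -2.55, adjusted p = 8.4e-11) and 3.33-fold in sufficient cells (log2 change -1.76, adjusted p = 1.5e-08). Il18r1 fell 1.56-fold in deficient cells (log2 change -0.67, adjusted p = 0.0018) and 2.09-fold in sufficient cells (log2 change -1.09, adjusted p = 1.6e-05). The deficient and sufficient versions of a polarization change differ by exactly the stage difference tested above, where Stat4 passed.

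The order of the 4 groups was the same for Stat4 and Cxcr3, lowest in Th17 deficient, then Th17 sufficient, IL-7 deficient and IL-7 sufficient cells. Stat4 was separated at each of these steps, whereas for Cxcr3 the 2 Th17 groups and the 2 IL-7 groups overlapped. Il18r1 followed this order as well, with overlap between Th17 deficient and Th17 sufficient and between Th17 sufficient and IL-7 deficient cells. Runx3 and Ifng were lowest in IL-7 deficient cells, then IL-7 sufficient, Th17 deficient and Th17 sufficient cells, and the 2 IL-7 groups overlapped for both. For Ifng the IL-7 sufficient and Th17 deficient libraries overlapped too, as did the 2 Th17 groups. Levels were not compared between genes, since no lengths of the authors' build were used.

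**Figure D3:**
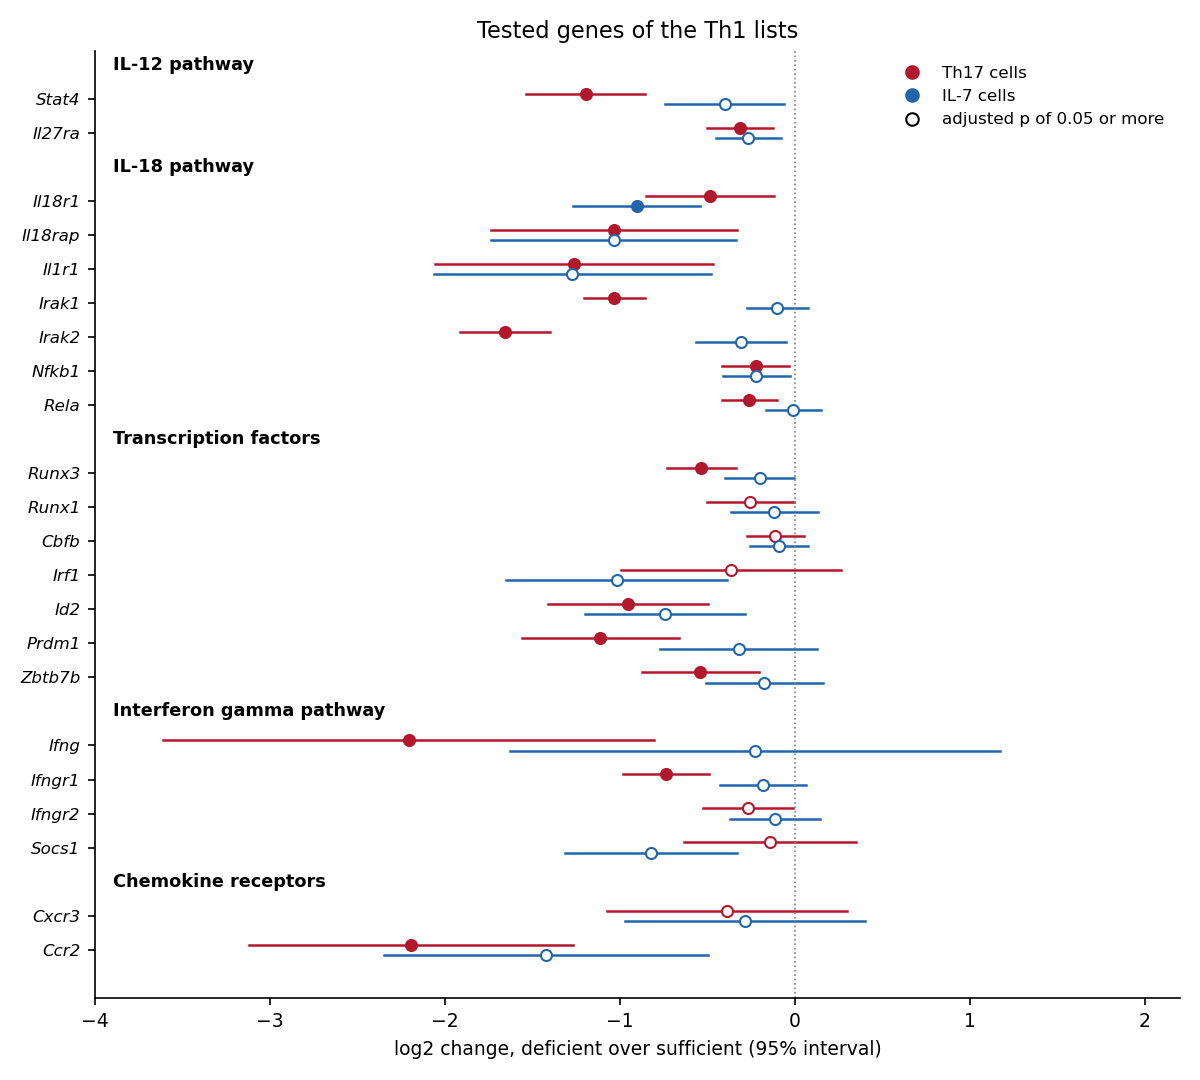
Log2 changes of deficient over sufficient cells with 95% intervals for the tested genes of 5 Th1 lists, in Th17 cells (red) and IL-7 cells (blue), filled where the adjusted p was under 0.05. All 7 tested genes of the interleukin 18 list are filled in Th17 cells, and Il18r1 is the 1 filled point in IL-7 cells.

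Other genes of the Th1 pathway gave the setting for the members. In Th17 cells 7 of 7 tested genes of the interleukin 18 list were called lower with deficiency, members included, of 15 listed and 8 joined to a row. This and the list counts that follow stand beside 55.1% of named and 28.7% of all rows called lower, and since only genes with a negative fold change in the authors' deposited table carry a name, a list gene that rose could not be counted. Nfkb1, a subunit of NF-kappa B and 1 of the 7 (-0.22, adjusted p = 0.044), lost its call in 15 of 33 alternatives. The widest changes were those of Irak2 (log2 change -1.66, adjusted p = 6.8e-09) and Irak1 (-1.03, adjusted p = 1.7e-08), kinases under the receptor, and of Il1r1 (-1.26, adjusted p = 0.0082), a receptor for interleukin 1, and Il18rap (-1.03, adjusted p = 0.013), the signalling chain that pairs with the Il18r1 product. The median log2 change of the 7 was -1.03, against -0.42 over the named rows. In IL-7 cells 1 of these 7, Il18r1, was called. There Il18rap averaged 726 ± 323 normalized counts in deficient and 1475 ± 656 in sufficient cells (SD, n = 4 each), with a log2 change of -1.04 and an adjusted p of 0.089.

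For the interleukin 12 list only Stat4 and Il27ra, the interleukin 27 receptor, could be tested, and both were called lower in Th17 cells, Il27ra by a log2 change of -0.31 (adjusted p = 0.0058). The receptor chains Il12rb1 and Il12rb2 were joined to rows but not tested, because the powers of 10 of their IL-7 values were not settled. Of the transcription factors listed with the Th1 genes, 4 of 7 tested were called lower in Th17 cells. These were Prdm1 (-1.11, adjusted p = 0.00023), Id2 (-0.95, adjusted p = 0.0011), Zbtb7b (-0.54, adjusted p = 0.0076) and Runx3, with a list median of -0.53. The list was not split by whether a factor favours or opposes Th1 cells, and Zbtb7b also serves below as a CD4 marker. A lower gene of this list is thus not by itself a weaker Th1 program. Cbfb, which encodes the binding partner of every RUNX factor, had 3123 ± 259 normalized counts in Th17 deficient and 3365 ± 57.7 in Th17 sufficient cells (SD, n = 4 each, adjusted p = 0.23), and Runx1 had a log2 change of -0.26 (adjusted p = 0.074). Of the 14 listed, 10 were found among the names. Eomes was found but could not be joined. Tbx21, which encodes T-bet, was searched for and not found, so it could not be joined or tested.

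Among the interferon gamma genes 2 of 5 were called lower in Th17 cells, Ifng and its receptor chain Ifngr1 (log2 change -0.74, adjusted p = 3.5e-05), with a list median of -0.37. Of the chemokine list Ccr2 and Cxcr3 were tested, and Ccr2 was called lower at -2.20 (adjusted p = 0.00036). With polarization Ifngr1 and Irf1 fell where Ifng rose. Ifngr1 changed by -2.04 in deficient and -1.49 in sufficient cells (adjusted p = 2.3e-11 and 1.9e-09), and Irf1, an interferon gamma target, by -1.14 and -1.80 (adjusted p = 0.0020 and 2.7e-05). Of the cytotoxic list 4 of 7 were called lower with deficiency in Th17 cells: Prf1, the gene of perforin (-1.71, adjusted p = 0.011), Nkg7 (-1.31, adjusted p = 0.048), Cd226 (-0.89, adjusted p = 0.00010) and Ltb (-0.48, adjusted p = 0.0034).

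The Th17 genes stood beside these. Il17a and Il17f were lower in Th17 deficient than in Th17 sufficient cells, by -3.60 and -1.80 (adjusted p = 3.9e-06 and 0.00015), and 3 of 5 tested genes of that list were called. Batf was the third, at -0.42 (adjusted p = 0.046). Lower expression with deficiency thus reached genes of both programs in this table, which names genes of that direction.

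Markers of other cells stood beside Ifng in Th17 cells as follows. Only genes with a negative fold change in the authors' deposited table for this contrast carry a name, so the direction of every marker given was set by that list. The CD8 genes Cd8a and Cd8b1 summed to 113 to 196 normalized counts in Th17 deficient and 231 to 519 in Th17 sufficient libraries, and Cd8b1, the one tested, was called lower (log2 change -0.84, adjusted p = 0.00042). The myeloid markers Cd68 and Fcer1g, 2 of 6, summed to 97.5 to 172 in Th17 deficient and 182 to 359 in Th17 sufficient libraries, and Cd68, the one tested, was called lower (-1.25, adjusted p = 3.6e-06). Klre1 had 48.3 to 105 in Th17 deficient and 171 to 252 in Th17 sufficient libraries and was not tested. For scale, the CD4 markers Cd4 and Zbtb7b summed to 7083 to 7924 and 9081 to 11920 in the same groups. The B cell markers, 5 of 6 joined, summed to 65.0 to 188 in Th17 deficient and 145 to 337 in Th17 sufficient libraries, and the 2 of 3 joined gamma delta T cell markers to 195 to 447 and 311 to 579. Both sums overlap between the groups, and 0 of the 3 genes tested of these lists were called by limma, 1 having an unadjusted p under 0.05. The part of such cells in the Ifng result was not tested.

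Over the 16 libraries, the genes whose log2 levels ran most like a member's, by Pearson's r among 6754 named and tested genes, are given as a description. All libraries share the 4 groups, so r mostly repeats the group pattern. Stat4 ran with Mgst2, H2-Q5 and H2-Q7 (r of 0.993, 0.993 and 0.992), and Runx3 with Hnrnpa1, Gapdh and Hemk1 (0.994, 0.993 and 0.993). For Cxcr3 these were Zfp959, Plcl2 and Wdr41 (0.982, 0.981 and 0.981). Il18r1 and Ifng had looser company. Il18r1 ran with Gpr97, Ly6g5b and D130040H23Rik (0.960, 0.931 and 0.919), and Ifng with Hs3st6, Nlrp6 and Ubald2 (0.923, 0.920 and 0.915). Ranked by Spearman's rho, 1 of these 15 genes came back for its member, Gpr97 for Il18r1.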

How the data were processed

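Mouse CD4 T cell RNA was measured in 16 poly(A) stranded libraries. The submitters' processing notes name Trim Galore 0.4.4, STAR 2.6, featureCounts, edgeR and DESeq2 and the build NCBIM37. Their settings are not stated there. Per the file headers, the authors' table holds for 8552 genes a mean normalized count (a signal), a log2 fold change and its error, a test score, and a p-value with its adjusted p-value. The 16 deposited library columns are normalized counts that lost their decimal points, treated as a score, and their rows were not in the order of the names.

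Each value is whole reads times 1 step per library (99.993% of nonzero values whole within a relative 2e-09), so its digits leave only a power of 10 unknown. That power was set by the other libraries of the group, and a row was settled at a posterior of 0.95. A name was matched to the row that returned its deposited log2 fold change within 1e-06 (up to 5e-06 at wide standard errors), the next row being at least 20 times farther. This joined 8332 names (97.4%), 635 on next-best powers, and 14 of 1000 decoys. For each member, the powers used in the 8 Th17 libraries ranked first among 256 to 576 settings. Settled rows (14043) with a mean of at least 5 normalized counts, plus the members, were tested with limma 3.58.1 (R 4.3.3, trend) on log2(value + 1) of the restored normalized counts, and no count test was run. The restoration, the matching of names and the fit were tried on simulated data. For the restoration and the matching these were drawn around settled rows, with the step of each library given. The Ifng row, which was not settled, was not among them. The members and the gene lists were chosen with earlier results of these data known. Named genes are the members and, per list and comparison, at most 4 called genes of widest log2 change; genes given beyond these were chosen after their values were seen. Intervals cover the spread between libraries, and the 4 libraries per group and about 19770447 to 28625705 reads each limit the precision.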

Additional observations from a re-analysis of the deposited data

Results flagged for a closer look

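Cxcr3 in Th17 deficient cells has 1 library far from the others, D3TAM959, with 30.7 normalized counts against 60.3 to 65.0 in the other 3 libraries. Its gap to the nearest library is 0.863 of the group's range, above Dixon's 95% critical value for 4 samples. Chance gives such a gap in about 1 in 20 groups, and 20 groups of member values were looked at. In Th17 sufficient cells the library of the same ending, D3959, was also the lowest, at 37.4.

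Stat4 differs between stages in its response to deficiency. The log2 change of deficient over sufficient cells was -1.19 in Th17 and -0.40 in IL-7 cells, and the difference of -0.79 passed the test of the difference itself (limma, adjusted p = 0.0106). Stat4, like every named gene, carries a name through a negative change in Th17 cells, which is part of this difference. The median difference over the named rows was -0.38.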

How the results depend on the processing

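The results were refitted under 33 alternatives (32 for the difference between stages). Stat4, Runx3 and Cxcr3 kept their direction and their side of the threshold in Th17 deletion and in both polarization comparisons. So did Ifng and Il18r1 in polarization of sufficient cells, and Il18r1 in that of deficient cells. Some alternatives changed only Ifng values and could not move the other members. In Th17 deletion the direction was set by the list of names. With libraries left out, the number of members called ran from 2 to 4 in Th17 deletion, 0 to 1 in IL-7 deletion, 4 to 5 in polarization of deficient cells, 5 in every fit of that of sufficient cells and 0 to 3 in the difference between stages. In these fits, of 13706 to 13776 rows tested, 6376 to 8216 were called in Th17 deletion and 40 to 697 in IL-7 deletion. The rows called ran from 9897 to 10898 in polarization of deficient and 9515 to 10564 in that of sufficient cells, and from 3245 to 5744 in the difference between stages. The log2 change of Ifng in IL-7 deletion turned sign in 2 such fits, with a range of -0.59 to 0.20, and the stage difference of Cxcr3 in 5, with a range of -0.40 to 0.23; the cause was not tested. Fitted on the 2 groups compared, 2 members were called in IL-7 deletion, Stat4 being added, beside 629 of 13258 rows called in either direction. With all restored rows in the fit, 490 rows were called lower in IL-7 deletion, against 284, and with the replicate number as a block 440; no other count over all rows differed by over 1.5 times under another pseudocount, filter, scaling, test setting or choice of powers of 10. Among the listed genes, Il18rap lost its polarization calls under both other scalings (adjusted p of 0.0539 to 0.0596), and Nfkb1, Nkg7 and Batf lost theirs in Th17 deletion in 14 to 15 of 33 alternatives. The count tests edgeR and DESeq2, planned as alternatives on the restored reads, were not run: the deposited columns without their decimal points were taken as a score, not as counts.

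With the replicate number as a block, 3 members were called in the difference between stages, Runx3 (adjusted p = 0.0320) and Ifng (adjusted p = 0.0347) joining Stat4, and no other call of a member changed. In that fit 5789 of 13757 tested rows were called in the difference between stages, 2766 of them with a negative difference. Correlations of the deviations of same-numbered libraries ran from 0.0345 to 0.173 in Th17 deletion and 0.0727 to 0.382 in IL-7 deletion, so not every pair exceeded 0.1 and the numbers were not taken to pair the samples. Each library did correlate best with its own number in all 4 comparisons, a hint from the data. Beyond the shared endings the labels name no mouse, and they give the libraries that end like D3TAM959 as female and the rest as male.

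Depth limits Ifng in IL-7 cells, at 4 to 34 reads per library.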

Other observations

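The authors' deposited table gives a mean normalized count of 1478 for Ifng, while the 16 libraries analysed here average 59.3. For the other members the values lie closer, at 557 in the authors' deposited table and 644 here for Stat4, 2953 and 2617 for Runx3, 2528 and 2910.2 for Il18r1, and 358 and 309 for Cxcr3. How many libraries stand behind the authors' mean is not given in the sources used here.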
